A study of Homo sapiens with 2 samples.

Results

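The intergenic GATA peaks without a composite element were 1676 of the 11046 LDB1 peaks obtained by CUT&Tag in NB4, a cell line from a human acute promyelocytic leukemia. Each had a midpoint more than 1000 bp from every annotated transcription start site (TSS) and outside every protein-coding gene body. The 200 bp centred on that midpoint held a GATA motif on either strand, that is GATA with A or T ahead of it and A or G after it. The same window held no composite element, which is CTG followed after 7 or 8 bases by a GATA motif. These peaks are called the members below. The rule used sequence and annotation only, and no measured value.

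In CUT&Tag a transposase is tethered by an antibody to a chromatin protein and inserts sequencing adapters into DNA close to it. The series had 2 NB4 libraries, an LDB1 antibody library labelled LDB1 overexpression and an IgG library labelled untreated, so antibody and treatment cannot be told apart. With 1 library per group no test between groups was possible. Intervals are at 95% and reflect only the number of peaks, windows or listed genes counted with the single LDB1 library. The peak list gave positions and lengths without heights, so the read depth behind a peak is unknown.

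LDB1 is a co-regulator that has no DNA-binding domain of its own. In blood cells it is joined through LMO2 to GATA factors and to TAL1 paired with an E protein, and LDB1 molecules bind each other, which can bring distant regulatory DNA to a promoter. GATA factors bind the GATA motif and TAL1 binds an E-box, of which only CTG is usually left in the composite element. The members hold a GATA motif in which this remnant was not found at the usual spacing.

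The central 200 bp of 7 members are shown to let the GATA motifs be seen in their setting. They are the longest of each of 5 gene lists and 2 of the 5 members with most GATA motifs, ties going to longer members. Each is given on the plus strand of hg38 and named for the gene with the nearest protein-coding TSS, and capitals mark a GATA motif or its reverse complement.
CBFA2T3 (chr16:89004044-89004243): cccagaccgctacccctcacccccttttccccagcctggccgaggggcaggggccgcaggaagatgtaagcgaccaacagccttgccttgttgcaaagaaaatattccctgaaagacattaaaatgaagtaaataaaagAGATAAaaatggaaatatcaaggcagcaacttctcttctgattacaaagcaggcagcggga
GYPC (chr2:126651114-126651313): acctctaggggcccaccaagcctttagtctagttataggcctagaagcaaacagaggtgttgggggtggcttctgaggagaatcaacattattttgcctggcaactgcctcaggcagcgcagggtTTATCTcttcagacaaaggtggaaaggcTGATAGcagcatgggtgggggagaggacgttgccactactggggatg
GP9 (chr3:129056520-129056719): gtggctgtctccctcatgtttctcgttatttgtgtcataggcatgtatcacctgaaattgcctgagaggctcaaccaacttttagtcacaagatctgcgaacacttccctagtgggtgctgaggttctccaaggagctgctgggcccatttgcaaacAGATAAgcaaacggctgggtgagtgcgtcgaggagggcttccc
CEBPE (chr14:23112504-23112703): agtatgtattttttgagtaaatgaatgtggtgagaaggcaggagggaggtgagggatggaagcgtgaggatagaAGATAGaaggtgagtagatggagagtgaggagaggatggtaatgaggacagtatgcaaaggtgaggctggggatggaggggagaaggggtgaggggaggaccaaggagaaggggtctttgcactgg
HHEX (chr10:92756448-92756647): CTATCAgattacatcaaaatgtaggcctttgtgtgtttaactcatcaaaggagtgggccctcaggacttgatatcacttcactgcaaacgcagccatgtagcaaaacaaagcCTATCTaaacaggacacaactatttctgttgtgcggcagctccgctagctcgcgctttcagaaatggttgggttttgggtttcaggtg
GPR37L1 (chr1:202076106-202076305): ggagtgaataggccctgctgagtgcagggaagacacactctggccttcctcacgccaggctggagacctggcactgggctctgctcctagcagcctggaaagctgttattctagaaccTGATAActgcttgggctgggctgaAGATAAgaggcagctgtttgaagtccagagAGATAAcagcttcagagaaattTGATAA
MRM1 (chr17:36728573-36728772): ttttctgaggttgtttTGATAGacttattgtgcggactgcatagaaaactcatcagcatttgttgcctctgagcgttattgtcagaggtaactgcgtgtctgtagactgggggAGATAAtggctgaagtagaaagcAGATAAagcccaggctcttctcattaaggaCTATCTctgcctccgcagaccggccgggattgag

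The windows differed in how many GATA motifs they held. The windows at CBFA2T3, GP9 and CEBPE held 1 each, those at GYPC and HHEX held 2, and those at GPR37L1 and MRM1 held 4. In the window at GP9 the motif was followed by G, giving AGATAAG, and in the window at GPR37L1 this form occurred once. CEBPE encodes a transcription factor of late granulocyte development. GP9 encodes a subunit of the platelet receptor for von Willebrand factor, GYPC glycophorin C of the red cell membrane, and HHEX a homeobox factor of early blood cells. CBFA2T3 encodes ETO2, a co-repressor within the LDB1 complex.

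The question addressed first was how often intergenic peaks met the motif rule. Of 4406 intergenic peaks, 38.0% did so (36.6 to 39.5%). A further 515 held a composite and 2215 held no GATA motif in the window. Among peaks inside protein-coding genes the share was 37.7% (36.3 to 39.1%), and the difference of 0.372 percentage points (-1.64 to 2.39) included 0. Within 1000 bp of a TSS it was 28.1% (26.3 to 30.1%). Windows of 200 bp placed 1000 bp to either side of the intergenic peaks, without overlap with any peak, met the motif rule in 27.3% of 7899 cases (26.3 to 28.3%). The 2158 windows that did so are the comparison windows below. They carry the same motif by the same rule, so differences from them concern features other than its presence. Their median G and C content was 41.0%, compared with 49.0% in the members, and 852 members and 698 comparison windows with 42 to 50% G and C were compared as well, a choice made after seeing the data. Across all peaks, 47.1% held a GATA motif and 11.1% a composite.

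The form of the GATA motif differed between members and comparison windows. AGATAA was present in 51.01% of the members (48.6 to 53.4%) and 38.6% of the comparison windows (36.6 to 40.7%), a difference of 12.4 points (9.25 to 15.5). TGATAG was less frequent, in 16.8% of the members and 22.6% of the comparison windows, a difference of -5.79 points (-8.28 to -3.25). AGATAG was found in 24.4% of the members and 25.7% of the comparison windows. TGATAA was found in 31.15% of the members, 0.145 points above the comparison windows (-2.80 to 3.11), and both of these differences included 0. Over all peaks, AGATAA was found in 25.6%, AGATAG in 11.2%, TGATAA in 15.2% and TGATAG in 7.23%. Only 47.1% of all peaks held a GATA motif, which every member holds by the rule, so these shares are not read as a difference.

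The bases next to the motif differed more than the motif itself. AGATAAG was present in 410 members, or 24.5% (22.5 to 26.6%), and in 8.43% of the comparison windows (7.33 to 9.68%), a ratio of 2.90 (2.47 to 3.41). With C ahead of it as well, CAGATAAG was present in 8.12% of the members and 1.76% of the comparison windows, a ratio of 4.61 (3.23 to 6.57). All peaks held AGATAAG in 13.0% and CAGATAAG in 4.34%. These shares count peaks without any GATA motif as well, so they are not read as a difference from the members. Among the 852 members and 698 comparison windows within 42 to 50% G and C, with medians of 46.5% and 46%, the ratios were 2.99 (2.30 to 3.90) for AGATAAG and 4.32 (2.51 to 7.42) for CAGATAAG. G followed 39.7% of the GATA motifs in members and 22.2% of those in comparison windows. Peaks inside genes that met the same motif rule held AGATAAG in 26.9% (24.9 to 29.1%), and the difference from the members of -2.44 points (-5.38 to 0.511) included 0. Intergenic peaks with a composite held it in 34.4% (30.4 to 38.6%), and the difference of the members from them was -9.91 points (-14.6 to -5.41). Their windows held more GATA motifs (mean 1.64 compared with 1.36), which the composite rule itself favours, so this difference is not read further.

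The share with at least 2 motifs also differed. At least 2 GATA motifs were present in 502 members, or 29.95% (27.8 to 32.2%), compared with 21.1% of the comparison windows (19.4 to 22.9%), a difference of 8.87 points (6.09 to 11.7). In all, 1174 members held 1 motif, 417 held 2, 67 held 3 and 18 held more. For 3 or more motifs the shares were 5.07% and 4.22%, and the difference of 0.855 points (-0.478 to 2.24) included 0. Peaks inside genes did not differ from the members beyond the interval (30.1%, difference -0.136 points, -3.23 to 2.96). Of the intergenic peaks with a composite, 49.9% held at least 2. A window with more GATA motifs has more chances to hold a composite, so this share is not read as a difference from the members.

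The place of the motif within the window was not used by the rule beyond its 200 bp. A GATA motif lay within 25 bp of the midpoint in 34.9% of the members (32.7 to 37.2%) and 32.3% of the comparison windows (30.3 to 34.3%), and the difference of 2.65 points (-0.356 to 5.67) included 0. In intergenic peaks with a composite the share was 43.9% (39.7 to 48.2%), and the difference of the members from them was -8.98 points (-13.8 to -4.16). The density of GATA motifs in the members was 7.16 per kb in the 20 bp nearest the midpoint on either side and 7.12 per kb at 80 to 100 bp, so it was flat across the window. In peaks with a composite it was 9.27 per kb nearest the midpoint, 8.45 at 60 to 80 bp and 5.34 at 80 to 100 bp. A composite must lie whole within the window, so the rule itself keeps its GATA motif from an edge, and neither this drop nor the higher central share is read as a difference from the members. Outside the window, where the rule no longer acts, the members had 4.46 motifs per kb at 100 to 120 bp (3.95 to 4.97), 3.41 at 100 to 200 bp (3.21 to 3.61) and 2.04 at 500 to 1000 bp (1.98 to 2.11). The density thus stayed above that of the surroundings past the edge of the window. Peaks without a GATA motif in the window had 3.07 per kb at 100 to 200 bp (2.91 to 3.23).

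**Figure D1:**
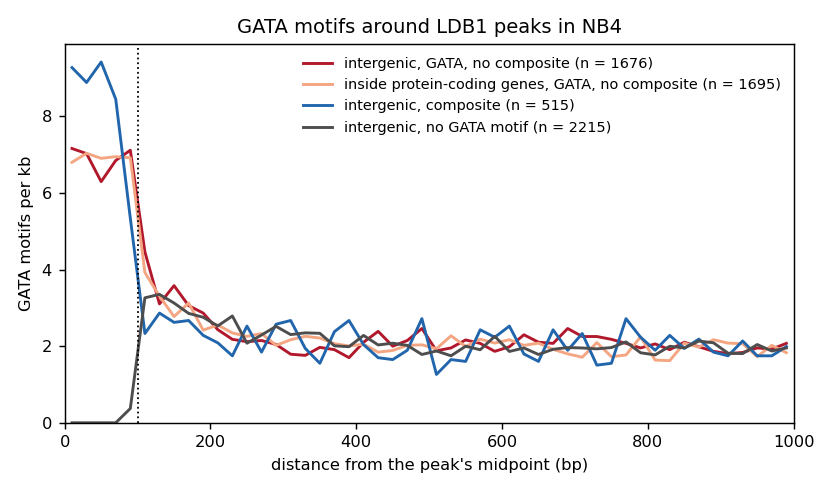
GATA motifs per kb (vertical axis) by distance from the peak's midpoint in bp (horizontal axis, steps of 20 bp) for 4 classes of LDB1 peak. The dotted line at 100 bp is the edge of the window used by the rule. The 1676 intergenic GATA peaks start at 7.16 per kb, stay level to the edge and fall to 2.04 per kb at 500 to 1000 bp, while the 515 peaks with a composite start at 9.27 and drop in the last 20 bp, where the rule leaves no room for a whole composite on 1 side.

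The members lack CTG at 7 or 8 bases ahead of the GATA motif by the rule, and the other spacings and triplets were open. Results showed that CTG lay 9 bases ahead of a GATA motif in 123 members, or 7.34% (6.19 to 8.69%), compared with 1.53% of the comparison windows (1.09 to 2.14%). The ratio was 4.80 (3.29 to 7.01). At the 18 other spacings from 0 to 20 bases the ratio ran from 0.947 to 2.83, with a median of 1.68. ATG, GTG or TTG, which differ from CTG at the first base, lay 8 bases ahead in 269 members, or 16.1% (14.4 to 17.9%), compared with 5.88% of the comparison windows (4.97 to 6.96%), a ratio of 2.73 (2.23 to 3.34). At the 20 other spacings this ratio ran from 0.733 to 1.63, with a median of 1.01, and the highest of them was at 7 bases. The triplets were unlike at 8 bases, with ratios of 4.59 (3.08 to 6.85) for GTG and 2.2 for both ATG and TTG. At 7 or 8 bases, triplets changed at the second base had ratios of 3.15 for CGG (22 members), 2.575 for CCG (18 members) and 1.6 for CAG (164 members). Those changed at the last base had 0.58 for CTA, 0.995 for CTC and 1.15 for CTT, and the intervals for CTC and CTT included 1. Within 42 to 50% G and C the ratios were 4.57 for CTG at 9 bases and 4.12 for ATG, GTG or TTG at 8 bases. These motifs were searched on both strands, and a CTG and a changed triplet may use the same GATA motif.

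**Figure D2:**
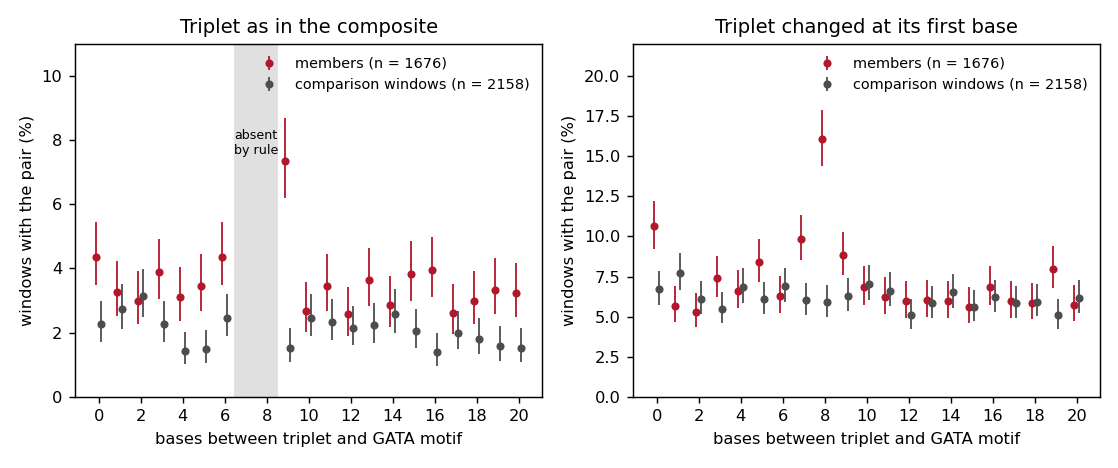
Share of windows in percent (vertical axes) with a triplet a given number of bases ahead of a GATA motif (horizontal axes), for the 1676 members in red and the 2158 comparison windows in grey. The left panel has the triplet of the composite element and the right panel triplets changed at the first base, and bars are 95% Wilson intervals. The members stand out at 9 bases on the left (7.34%) and at 8 bases on the right (16.1%), and spacings of 7 and 8 are absent on the left by the rule.

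Either of these near elements was present in 384 members, or 22.9% (20.96 to 24.98%), and in 7.41% of the comparison windows (6.38 to 8.597%), a difference of 15.5 points (13.2 to 17.8). Across all peaks the share was 8.75%, with 2.8% for CTG at 9 bases and 6.13% for ATG, GTG or TTG at 8 bases. Peaks without a GATA motif cannot hold a near element and are counted there, so these shares are not read as a difference. Peaks inside genes that met the same motif rule held a near element in 23.1%, and the difference from the members (-0.215 points, -3.06 to 2.63) included 0. AGATAAG or a near element was present in 40.6% of the members and 15.2% of the comparison windows. The remaining 995 members held neither. The earlier results of these data already showed a raised ratio for CTG at 9 bases over all peaks, so that value is not independent support. Both near elements were chosen after seeing the data, at the spacing with the highest ratio, and the intervals do not allow for that choice.

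The stretches below come from the longest members with a near element whose central 31 bases occur once in hg38, chosen after the values were seen, to show where the near element departs from the composite. Capitals mark the triplet and the GATA motif, and each stretch reads 5′ to 3′ on the strand given. The first set has CTG with 9 bases in between.
MRM1 (chr17:36728573-36728598, plus strand): ttttCTGaggttgtttTGATAGactt
HDAC6 (chrX:48795103-48795128, minus strand): tgagCTGggctgagcaAGATAAgacc
PXDC1 (chr6:3651137-3651162, plus strand): ggagCTGcagcagcagTGATAAggag
ENSG00000283952 (chr1:211222315-211222340, minus strand): ccctCTGagatggtagAGATAAtgat
FBXL17 (chr5:108531679-108531704, plus strand): atgtCTGcagctgcaaAGATAAgagg

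The next set has ATG, GTG or TTG with 8 bases in between.
CEBPE (chr14:23112563-23112587, plus strand): aagcGTGaggatagaAGATAGaagg
WDR1 (chr4:10181510-10181534, plus strand): gaacTTGgagagctgAGATAAtctt
PIM1 (chr6:37110127-37110151, minus strand): tagaATGtcaccaagAGATAAtcca
SEC14L1 (chr17:77070998-77071022, plus strand): tggaGTGttttggatTGATAAacgc
OLA1 (chr2:174059554-174059578, minus strand): tggtGTGtaagagtgAGATAAggaa

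Of these 10 stretches, 6 carry AGATAA. The member at HDAC6, which encodes a cytoplasmic deacetylase, was 2061 bp long and lay 6329 bp upstream of the TSS. The member at MRM1 was 2756 bp long and lay 126711 bp away. PIM1 encodes a kinase that is induced by cytokine signals in blood cells, and the member shown lay 59968 bp upstream and was 1562 bp long. Another member, of 1226 bp, lay 10834 bp downstream of the PIM1 TSS.

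Motifs of 6 other factors were planned, counted in the members and compared with the comparison windows, on both strands. Those of PU.1 and CTCF were added. PU.1 was present in 30 of 1676 members and 18 of 2158 comparison windows, and CTCF in 6 and 1. These counts are small and are not read further. The TAL1 E-box (CAGATG or CAGCTG) was present in 605 members, or 36.1% (33.8 to 38.4%), and in 17.8% of the comparison windows (16.3 to 19.5%), a ratio of 2.02 (1.81 to 2.26). Within 42 to 50% G and C the ratio was 1.84 (1.54 to 2.19). The AP-1 motif (TGACTCA or TGAGTCA), bound by JUN and FOS dimers, was present in 179 members, or 10.7% (9.29 to 12.2%), and in 3.57% of the comparison windows, a ratio of 2.99 (2.31 to 3.88). Within 42 to 50% G and C it was 3.09 (2.03 to 4.70). The RUNX motif (TGTGGT or TGCGGT) was present in 20.9% and 14.6%, a ratio of 1.43 (1.24 to 1.64), or 1.25 (1.00 to 1.56) within 42 to 50% G and C.

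The remaining motifs moved with base composition. KLF (CCNCNCCC), bound by the Kruppel-like factors, was present in 27.3% of the members and 11.4% of the comparison windows, a ratio of 2.39 (2.08 to 2.75) that was 1.35 (1.07 to 1.69) within 42 to 50% G and C. ETS (CAGGAAGC, CAGGAAGT, CCGGAAGC or CCGGAAGT) was present in 5.31% and 2.87%, a ratio of 1.85 (1.35 to 2.54) that was 1.19 (0.747 to 1.88) within 42 to 50% G and C. CEBP (TTGCNNAA) was less frequent, in 8.65% and 11.5%, a ratio of 0.750 (0.617 to 0.911), but within 42 to 50% G and C its ratio was 1.09 (0.811 to 1.46). Over all peaks the shares were 33.8% for the TAL1 E-box, 20.5% for RUNX, 5.65% for ETS, 9.48% for AP-1, 32.0% for KLF and 7.44% for CEBP.

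Peaks inside genes that met the same motif rule did not differ from the members beyond the interval for any of the 6 motifs. The differences were 1.88 points (-1.34 to 5.10) for the TAL1 E-box, 0.824 (-1.90 to 3.55) for RUNX, 0.472 (-1.02 to 1.97) for ETS, 0.356 (-1.72 to 2.43) for AP-1, 0.129 (-2.87 to 3.13) for KLF and 1.69 (-0.124 to 3.51) for CEBP. Compared with intergenic peaks that lacked a GATA motif, the members held the TAL1 E-box more often by 3.14 points (0.128 to 6.16), and the intervals of the other 5 differences included 0. Of the members, 27.9% held none of the 6 motifs and 29.8% held 2 or more, compared with 51.5% and 11.7% of the comparison windows. This count was not made over all peaks or in windows matched for G and C content. For single motifs, the difference of the members from all peaks was -4.8 points (-7.0 to -2.4) for KLF. The intervals of the other 5 differences from all peaks included 0.

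**Figure D3:**
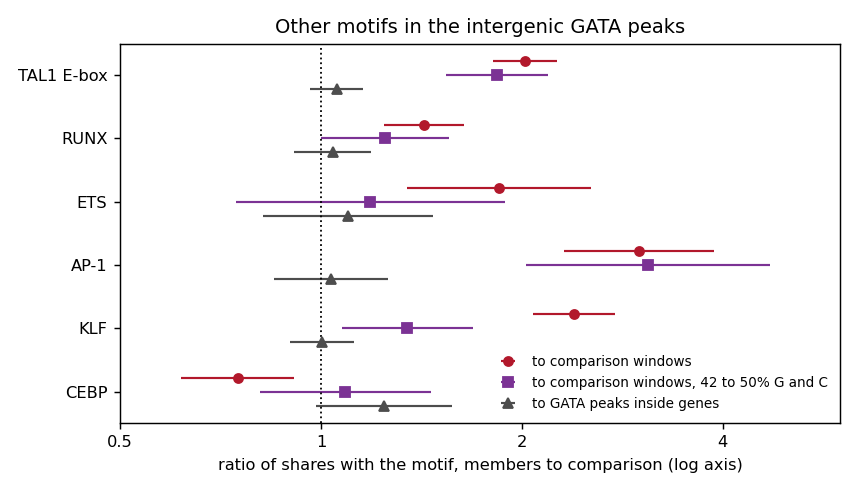
Ratio of the share of members with each of 6 motifs to the share in a comparison set (horizontal log axis), with bars for 95% intervals. Circles use the 2158 comparison windows, squares only windows of 42 to 50% G and C, and triangles the 1695 GATA peaks inside genes. The TAL1 E-box (2.02) and AP-1 (2.99) stay near their ratios in the squares, KLF, ETS and CEBP lie closer to 1 there, and the triangles lie close to 1.

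A composite element could still lie elsewhere in a member, outside the central 200 bp. This was the case for 149 members, or 8.89% (7.62 to 10.3%). Over the length outside the window there were 0.277 composites per kb in the members, 0.278 in the GATA peaks inside genes and 0.378 in the intergenic peaks without a GATA motif, compared with 0.0677 per kb in the flanks. A different peak with a composite lay within 10 kb of 8.53% of the members (7.29 to 9.97%), compared with 8.83% of all intergenic peaks and 8.22% of all peaks.

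Peak length stood in for strength, since no height was given, and it was not used by the rule. The median length of the members was 462 bp (448 to 476), with quartiles of 326 and 638 bp. GATA peaks inside genes had a median of 473 bp (457 to 491), and the intervals overlapped, but they exceeded the upper quartile of all peak lengths in 25.8% compared with 22.9% of the members (difference -2.93 points, -5.82 to -0.0294). Intergenic peaks without a GATA motif had a lower median, 406 bp (397 to 421), yet 22.98% of them exceeded that upper quartile, and the difference of the members (-0.068 points, -2.72 to 2.62) included 0. Intergenic peaks with a composite had a higher median, 541 bp (518 to 573). Within the members, length moved with the motif. Members with AGATAAG had a median of 498 bp (479 to 523) and members with AGATAA 489 bp (473 to 507), compared with 432 bp (412 to 449) in members without AGATAA. Members with at least 2 GATA motifs had a median of 493 bp (471 to 511), compared with 448 bp (424 to 466) with 1. For members with a near element the median was 484.5 bp (458 to 512), compared with 454 bp (437 to 470) without, and these intervals overlapped. Of the 6 other motifs described above, KLF went with a median of 495 bp (474 to 515), compared with 447 bp (429 to 464) without it. The intervals with and without AP-1 (516 and 456 bp) met at 469 bp. Those for the TAL1 E-box (481 and 452 bp), RUNX (473.5 and 459 bp), CEBP (469 and 461 bp) and ETS (427 and 464 bp) overlapped.

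Sorted by length into 4 groups of equal size, the members held a central GATA motif in 31.03%, 31.7%, 42.96% and 33.97%, from the shortest to the longest group. AGATAA was found in 46.3% (41.6 to 51.1%) in the shortest group, 44.5% (39.8 to 49.3%) in the second, 57.3% (52.5 to 61.9%) in the third and 55.98% (51.2 to 60.7%) in the longest. A near element was present in 18.6% (15.2 to 22.6%), 23.6%, 25.1% and 24.4% (20.5 to 28.7%) of the 4 groups, and the intervals overlapped.

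Distance was measured to the nearest protein-coding TSS, and 21.3% of the members lay within 10 kb of one. The end of a gene could lie closer than its TSS. The median distance to the nearest protein-coding TSS was 31797 bp (29128 to 35125), with quartiles of 11847 and 83360 bp, compared with 9251 bp (8460 to 9996) for the GATA peaks inside genes. The rule fixes part of this contrast, because the inside of genes is closer to a TSS. Compared with the intergenic peaks without a GATA motif (29581 bp, 27796 to 31972) and those with a composite (31429 bp, 25697 to 34797), the intervals overlapped. More than 100 kb from a protein-coding TSS lay 21.96% of the members (20.04 to 24%) and 17.9% of the intergenic peaks without a GATA motif, a difference of 4.03 points (1.503 to 6.59). The members lay upstream of the nearest protein-coding TSS in 62.3% (59.9 to 64.6%), compared with 61.8% of all intergenic peaks.

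**Figure D4:**
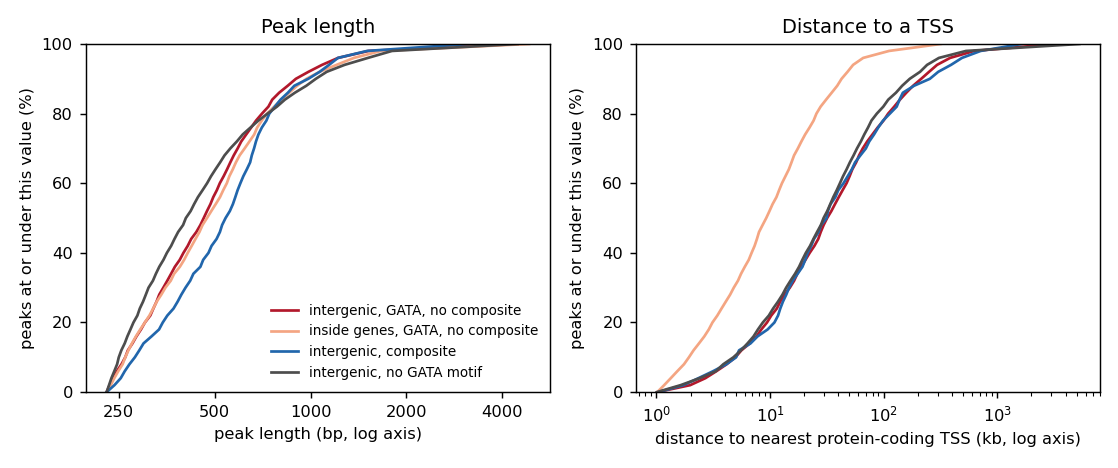
Cumulative share of peaks in percent (vertical axes) by peak length in bp (left) and by distance to the nearest protein-coding TSS in kb (right), both on log axes, for 4 classes of LDB1 peak. The members, with a median length of 462 bp, lie between the intergenic peaks without a GATA motif (406 bp) and those with a composite (541 bp). On the right the 3 intergenic classes lie close together, with medians from 29581 to 31797 bp.

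A lncRNA gene body held 24.9% of the members (22.9 to 27.0%), and 73.3% (71.2 to 75.4%) lay outside every annotated gene. Over all intergenic peaks these shares were 24.9% and 72.9%, so the members did not stand apart. The lncRNA bodies with most members were PVT1 with 7 and DIRC3-AS1, LINC00877 and PITX1-AS1 with 6 each. PVT1 is the lncRNA next to MYC. Another LDB1 peak lay within 10 kb of 46.6% of the members (44.2 to 49.0%), compared with 46.1% of the GATA peaks inside genes, a difference of 0.463 points (-2.90 to 3.83). Over all intergenic peaks this share was 52.3%, and over all peaks 53.1%. Intergenic peaks without a GATA motif had a neighbour more often, in 59.1% (57.0 to 61.1%), and the difference of the members from them was -12.5 points (-15.6 to -9.34). The rule's limits left members close to the edge. The 3 nearest a TSS, at DPH5, CD164 and ZNF175, lay 1007, 1008 and 1015 bp from it, and the 3 intergenic peaks left out last, at RHOBTB3, AGPAT3 and BTG2, lay 990, 995 and 1000 bp from it.

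Repeated sequence was part of the set. For 205 members the 31 bases at the centre had at least 1 further copy in hg38 (12.2%, 10.8 to 13.9%), compared with 7.08% of the GATA peaks inside genes, a difference of 5.15 points (3.17 to 7.15), and 16.1% of the intergenic peaks without a GATA motif, a difference of -3.89 points (-6.06 to -1.67). Over all intergenic peaks the share was 13.8%, and over all peaks it was 10.7%, so the members lay between these. For 107 members (6.38%) the central 51 bases were repeated too, compared with 7.49% of all intergenic peaks and 5.53% of all peaks. How the reads of these members were placed was not tested. A sequence of 20 bases shared by at least 5 members was present in 165 members, or 9.84% (8.51 to 11.4%), and a sequence of 20 bases shared by at least 5 comparison windows was present in 13.7% of those (12.3 to 15.2%). The most widely shared sequence that holds a GATA motif is given here, with the motif in capitals.
Shared sequence: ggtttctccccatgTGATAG

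It was present in 24 members on 11 chromosomes and in none of the 2158 comparison windows, which allows a share of up to 0.139%. The sequence was picked for being the most shared among the members, so lower counts elsewhere are not read as a difference. Of these 24 members, 20 had repeated central 31 bases, and their lengths ran from 230 to 701 bp. The sequence occurred 609 times in hg38, and 40 of these copies (6.57%) overlapped an LDB1 peak. The GATA peaks inside genes held it 7 times. No repeat annotation was used here, so the family of this sequence is not named.

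The gene with the nearest protein-coding TSS was taken for each member, which gives 1223 genes, or 6.11% of 20007 protein-coding genes. Of 22 genes of the LDB1 complex and its partners, 6 were nearest to a member (27.3%, 13.15 to 48.15%). They were LMO2, the bridge between LDB1 and DNA-binding factors, with 3 members, TAL1 with 2, TCF4, an E protein, with 3, and GATA2, SSBP3 and CBFA2T3 with 1 each. SSBP3 encodes a protein that stabilises LDB1. Of 30 stem cell and progenitor genes, 7 were nearest to a member (23.3%, 11.8 to 40.9%), and LMO2, TAL1 and GATA2 were on this list too. Of 20 megakaryocyte and platelet genes there were 4 (20%, 8.07 to 41.6%), and of 30 granulocyte genes 4 (13.3%, 5.31 to 29.7%). Of 40 red cell genes there were 4 (10%, 3.96 to 23.05%), and of 20 mast cell, basophil and eosinophil genes 2 (10%, 2.79 to 30.1%). The liver list, which holds genes of a cell type that NB4 is not, had 3 of 30 (10%, 3.46 to 25.6%). The intervals of the granulocyte, red cell, mast cell and liver lists included the 6.11% of all protein-coding genes. No expression was measured in these libraries, so being nearest does not tie a member to a gene.

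**Figure D5:**
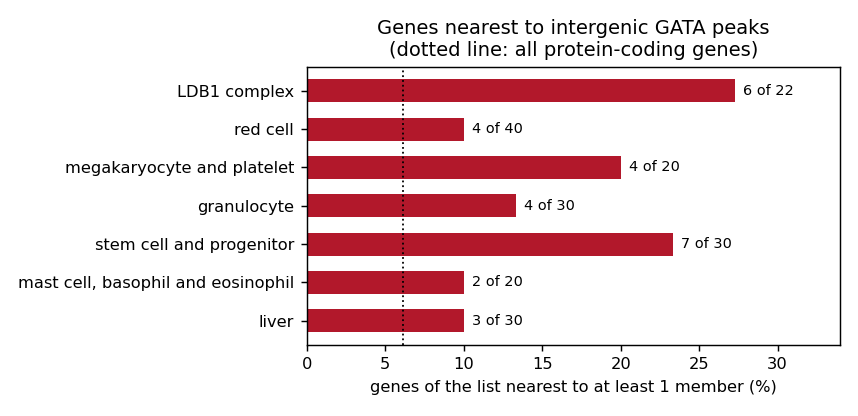
Share of the genes of each of 7 lists, in percent (horizontal axis), whose TSS is the nearest protein-coding TSS of at least 1 member, with counts beside the bars. The dotted line is the share among all protein-coding genes, 6.11%. The LDB1 complex (6 of 22) and stem cell and progenitor (7 of 30) lists reach 27.3% and 23.3%, and the red cell and liver lists 10% each.

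Several of the members near these genes were long. At CBFA2T3 the member was 1722 bp long (chr16:89003284-89005005) and lay 26937 bp upstream with 1 GATA motif. At TCF4 the longest of 3 members was 1338 bp (chr18:55747982-55749319), lay 83863 bp upstream inside an unnamed lncRNA gene and held 4 GATA motifs. The members at LMO2 were 837, 325 and 291 bp long and lay 45325, 6939 and 42599 bp upstream. At GATA2 the member was 806 bp long (chr3:128532623-128533428), lay 39824 bp upstream and held TGATAA with a TAL1 E-box in the window. The members at TAL1 were 773 and 269 bp long and lay on either side of the TSS, at 10608 bp downstream and 7502 bp upstream.

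The 4 granulocyte genes that were nearest to members were CEBPE, SERPINB1, CSF3R and LTF. The member at CEBPE was 3034 bp long (chr14:23111088-23114121), the second longest of all, and lay 6651 bp downstream of the TSS. SERPINB1, which encodes an inhibitor of neutrophil proteases, had a member of 1786 bp at 16284 bp upstream, with 2 GATA motifs, a TAL1 E-box, an ETS and a KLF motif. CSF3R, the receptor for granulocyte colony-stimulating factor, had members of 1087 and 459 bp at 9538 and 6296 bp upstream, and the central sequence of the shorter occurred 455 times in hg38. LTF, which encodes lactoferrin of neutrophil granules, had a member of 396 bp.

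Among stem cell and progenitor genes, ID2, which encodes an inhibitor of E proteins, had 6 members at 51982 to 376602 bp upstream, with lengths from 336 to 606 bp. KIT, the receptor for stem cell factor, had a member of 801 bp at 85679 bp upstream with RUNX and KLF motifs. HHEX had members of 2085 and 304 bp, the longer at 64516 bp downstream. Among platelet and red cell genes, the member at GP9 was 1608 bp long at 4159 bp upstream and that at GYPC 601 bp at 4919 bp upstream. F2R, the thrombin receptor, had a member of 760 bp, and ITGB3, an integrin of the platelet fibrinogen receptor, a member of 414 bp. The members at KEL and TFRC were 283 and 232 bp long, near the shortest length of any member (229 bp). The members at HPD, APOH and CYP3A4 of the liver list were 425, 396 and 237 bp long.

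Several members could share a nearest gene. Of the 1223 genes, 940 were nearest to 1 member, 95 to at least 3 and 16 to at least 5. CD93, a receptor of myeloid and endothelial cells, and OPA1, a protein of mitochondrial fusion, had 8 each, of 13 and 14 intergenic peaks. CPEB4, an RNA-binding protein that acts on poly(A) tails, MYC and RYBP, a Polycomb subunit, had 7 each, of 21, 16 and 21 intergenic peaks. The members were 38.0% of intergenic peaks in all, so those at CPEB4 and RYBP were below that share. The 8 members at CD93 were all upstream, at 5593 to 63202 bp, and were 258 to 700 bp long. They held different forms of the motif, with TGATAG in 5 windows. The 8 members at OPA1 lay 54075 to 219836 bp from it. Those at MYC lay 61630 to 437859 bp away. Counted in fixed steps of 1 Mb, the densest stretch was chr1:119000000-119999999 with 13 members among 45 peaks, of which 4 members had repeated central bases. The stretches chr2:112000000-112999999 and chr3:193000000-193999999 had 11 each, among 28 and 23 peaks, and chr20:23000000-23999999, next to CD93, had 10 among 23. These counts are among peaks of every kind, of which the members were 1676 of 11046 in all. The stretches were picked for holding the most members. By chromosome, the members were 28.02% (22.3 to 34.5%) of the intergenic peaks on chromosome 7, the lowest share, and 45.3% (34.6 to 56.6%) on chromosome 22, the highest.

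The 10 longest members ran from 4348 bp at SIGLEC6 to 2085 bp at HHEX. The longest lay 16208 bp upstream of SIGLEC6, which encodes a sialic acid-binding receptor found on mast cells, and 2 further members of 1093 and 247 bp lay near the same gene. GPR37L1, MRM1, POLR1A, FAM76B, SPDEF, SFSWAP and DEFB115 followed CEBPE, with 3006, 2756, 2607, 2366, 2263, 2229 and 2116 bp. SFSWAP, which encodes a splicing regulator, had 4 AGATAA motifs in the window, the nearest at 7 bp from the midpoint. The central sequence at DEFB115 occurred 3 times in hg38 and those of the other 9 once. The window with most GATA motifs lay near NMBR on chromosome 6, with 5 copies of AGATAA, in a member of 329 bp whose central sequence occurred 17 times. The 5 members farthest from a protein-coding TSS lay near OR11H1, DEFB115 and CDH9, at 1993383 to 3218139 bp, and the 3 near OR11H1 and DEFB115 had central sequences found 4 times in hg38.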

How the data were processed

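CUT&Tag libraries of NB4 cells were made by the authors, 1 for LDB1 and 1 for IgG. Per the methods of the study and the submitters' processing notes, reads were aligned to hg38 with Bowtie2 2.4.4 and MACS3 3.0 was run on the fragments of read pairs with a q-value limit. Whether the IgG library was the control, and whether duplicates or ambiguous reads were removed, is not given in the sources used here, and a list made without either step would hold more repeated or open sequence. The deposited values were peak positions and lengths in bp, with no score.

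Positions were read as counted from 1. Genes came from GENCODE release 44. Motifs were searched as consensus sequences in 200 bp at the midpoint, with intervals for shares (Wilson), differences (Newcombe), ratios (log scale) and medians (order statistics). Copies of the central 31 bases were counted in hg38 on both strands. Of 400 simulated windows for each planted element, 400 composites, 400 CTG at 9 bases and 400 GTG at 8 bases were found. Software was pysam 0.24.0, matplotlib 3.10.9, pandas 2.3.3, SciPy 1.17.1 and numpy 2.4.6 under Python 3.11.15.

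The members, lists and tests were chosen with earlier results of these data known. Named were the 10 longest members, the 5 with most GATA motifs and the 5 farthest from a protein-coding TSS. Ties in the number of GATA motifs went to longer members. Also named were up to 30 members near genes of the lists and the 5 genes with most members. The near elements, the windows of 42 to 50% G and C, the windows without recurring sequences and the shared sequence were chosen after seeing the data. A few items that the rule names are not reported here. The alternatives covered TSS limits, annotation, window size, peak length, repeated sequence and the place of the comparison windows.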

Additional observations from a re-analysis of the deposited data

How the results depend on the processing

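No paired analysis was possible because the series has 1 LDB1 library. Each result was recomputed under 223 alternatives in all, and 180 stayed within the main interval, or for the number of members within 1.5 times. The number of members was 3268 with a GATA motif anywhere in an intergenic peak, composites included, 1070 in a window of 100 bp, and 868 among the longer peaks (above the median of all). In a window of 100 bp, 24.3% of intergenic peaks met the rule and 16.3% of members held at least 2 GATA motifs, while the ratios were 2.49 for the TAL1 E-box, 1.74 for RUNX and 2.82 for KLF. Among longer peaks 40.5% met the rule, and among longer members (above the median of the members) 38.5% had a central motif (6.22 points above the comparison windows), 33.2% at least 2 motifs (12.1 points) and 56.6% AGATAA (18.03 points). Against all flanks the ratios were 1.77 for the TAL1 E-box, 1.22 for RUNX, 1.57 for KLF and 0.911 for CEBP. At 42 to 50% G and C, chosen after seeing the data, 33.7% held at least 2 motifs (17.2 points), 54.3% AGATAA (19.5 points), the ratios were 1.19 for ETS, 1.35 for KLF and 2.04 for CTG at 6 or 9 bases (2.88 in all windows), and CEBP turned from 0.750 to 1.09. Basic transcripts alone gave a median distance of 38541.5 bp, and merging peaks under 1000 bp apart a median length of 484 bp. A neighbour was found in 36.0% within 5 kb, 57.3% within 20 kb, 35.6% among longer peaks and 37.2% after merging, and 6.38% had repeated central 51 bases. The share of all protein-coding genes nearest to a member was 5.15% within 100 kb, 3.52% with longer members, 5.48% with central bases found once and 8.83% within 50 kb of any member, and longer members left 2.50% of the red cell and 0% of the liver genes. Within 50 kb of any member the stem cell and progenitor share fell from 23.3% to 13.3%. It rose to 15% for red cell, 25% for megakaryocyte and platelet and 23.3% for granulocyte genes, and the other lists kept their shares. The depth of the library is unknown, and single peaks have no error estimate.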
